A study of Mus musculus with 6 samples.

Results

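Among 8598 genes measured in cultured mouse microglia, 41 had lower transcript levels after 6 h of lipopolysaccharide (LPS) than in unstimulated cultures and higher levels again after 24 h of LPS, in control and in LRRK2-deficient cells alike. A gene belonged when its log2 intensity at LPS 6 h lay at least 1 below that at PBS 24 h and at least 1 below that at LPS 24 h, each in both genotypes. Values for this choice were log2 of the authors' normalized intensities, with the brightest probe of a gene among probes detected (detection p under 0.01) on at least 2 arrays. Genes named Slc, Rab with a digit, Ccn, Mcm, Cdc, Cenp or Kif, and Tpcn1, were left out by name. Of 252 genes at least 1 lower at LPS 6 h than in PBS in both genotypes, and 96 at least 1 higher at LPS 24 h than at LPS 6 h, 48 met both conditions, and 7 of these were left out by name (Rab11fip5, Slc13a3, Slc25a10, Slc25a45, Slc35c2, Slc45a4 and Tpcn1). The 48 made up 19.05% of the 252.

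Microglia are the resident macrophages of the brain and sense LPS, a component of the bacterial outer membrane, through Toll-like receptor 4. The receptor switches on cytokine, chemokine and interferon-stimulated genes within hours. Over the same hours macrophages lower many transcripts of their resting state, through less transcription and faster RNA decay, and part of these return as the first wave of signalling fades. Such genes serve varied tasks, among them protein folding in the endoplasmic reticulum, vesicle traffic, lysosomal lipid breakdown and control of the actin skeleton.

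Each of the 6 groups was measured on 1 array: Ntg cells (strain C57BL/6) and LRRK2KO cells (strain B6.129X1(FVB)-Lrrk2tm1.1Cai/J, lacking leucine-rich repeat kinase 2), each given LPS for 6 h, phosphate-buffered saline (PBS) for 24 h or LPS for 24 h. Cells came from brains at postnatal day 3 and were treated in vitro. The strains differ between the genotypes, so strain background and loss of Lrrk2 cannot be told apart. A PBS array at 6 h was not analysed here, so LPS and time in culture cannot be told apart in any comparison with the LPS 6 h arrays. Nothing in the labels names separate cultures or animals, and each group had 1 array, so no spread between replicates was measured. The p-values and standard errors below take their spread from how far the genotype difference changed between treatments, which may be technical. A difference between genotypes that holds in only some treatments counts there as error.

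Per array, 13126 to 15049 of 45281 probes were detected. Tnf, a first target of LPS, read 14.60 and 14.59 (normalized log2 intensity, Ntg and LRRK2KO) at LPS 6 h against 11.51 and 11.66 in PBS. Lrrk2 was detected on 1 array, Ntg PBS, so it checks no genotype label. Of the microglia markers, Csf1r, Aif1, Itgam, Cx3cr1, Fcrls and Olfml3 were detected on all 6 arrays and P2ry12 and Gpr34 on none, while none of the neuron or endothelial markers was detected. In these bulk samples, fewer cells of a type and less RNA per cell cannot be told apart.

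The promoters of 34 members were matched by symbol in a RefSeq table (build GRCm38.p6), which gave 45 windows of 250 bases before to 50 after a transcription start. Members without a window were Abi3, Cd8b1, Erp29, Lrmp, Ndrg1, Snx24 and Zdhhc14. The 5 windows below, written 5′ to 3′ on the gene's strand, were picked because their genes carry the results. Sesn1 had the widest gap between PBS and LPS 6 h and is shown at both of its starts, Sdf2l1 and Gm5150 were the members called above PBS at LPS 24 h, and Kcnab2 held the most CCAAT copies. Capitals mark matches, on either strand, to any of 8 motifs: the CCAAT box, the GC box GGGCGG, the TATA box written as TATAAA, the E-box CACGTG, the cyclic AMP response element TGACGTCA, the ETS-type sequence GGAAGTG, the bZIP-type palindrome TTACGTAA and the forkhead-type sequence TGTTTAC.
Sesn1, chr10:41810324-41810623, plus strand: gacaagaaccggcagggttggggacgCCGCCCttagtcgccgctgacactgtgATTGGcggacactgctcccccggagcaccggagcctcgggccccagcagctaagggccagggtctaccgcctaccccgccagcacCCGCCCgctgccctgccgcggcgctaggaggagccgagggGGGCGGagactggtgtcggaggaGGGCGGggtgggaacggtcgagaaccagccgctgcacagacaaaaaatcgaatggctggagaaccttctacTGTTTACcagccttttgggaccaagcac
Sesn1, chr10:41887189-41887488, plus strand: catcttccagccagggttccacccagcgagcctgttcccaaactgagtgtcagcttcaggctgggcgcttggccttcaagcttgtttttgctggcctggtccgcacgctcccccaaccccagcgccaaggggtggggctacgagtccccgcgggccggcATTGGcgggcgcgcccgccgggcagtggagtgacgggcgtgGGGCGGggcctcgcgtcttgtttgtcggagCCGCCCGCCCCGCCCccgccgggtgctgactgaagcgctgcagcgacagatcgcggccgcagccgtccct
Sdf2l1, chr16:17132334-17132633, minus strand: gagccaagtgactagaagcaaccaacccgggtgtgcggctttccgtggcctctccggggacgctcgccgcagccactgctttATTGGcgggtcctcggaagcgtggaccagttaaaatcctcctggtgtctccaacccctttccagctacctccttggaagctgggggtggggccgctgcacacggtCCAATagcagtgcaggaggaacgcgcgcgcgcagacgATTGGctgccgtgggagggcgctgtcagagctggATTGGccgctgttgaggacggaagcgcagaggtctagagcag
Gm5150, chr3:16006283-16006582, minus strand: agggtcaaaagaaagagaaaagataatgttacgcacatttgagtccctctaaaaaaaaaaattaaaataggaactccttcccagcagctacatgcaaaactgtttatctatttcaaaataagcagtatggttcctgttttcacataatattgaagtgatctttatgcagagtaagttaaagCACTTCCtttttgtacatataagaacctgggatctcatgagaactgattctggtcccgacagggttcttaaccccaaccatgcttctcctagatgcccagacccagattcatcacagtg
Kcnab2, chr4:152477500-152477799, minus strand: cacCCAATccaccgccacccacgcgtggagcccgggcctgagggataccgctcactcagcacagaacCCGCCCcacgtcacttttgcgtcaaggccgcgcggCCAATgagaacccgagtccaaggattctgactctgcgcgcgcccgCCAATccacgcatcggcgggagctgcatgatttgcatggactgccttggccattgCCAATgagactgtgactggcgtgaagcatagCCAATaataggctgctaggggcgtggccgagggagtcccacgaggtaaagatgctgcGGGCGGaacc

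The CCAAT box, bound by the factor NF-Y in many promoters, occurred in 22 of the 45 windows (48.9%), in 18 members. All 32851 windows of the table held it at 37.4%, as did the 9079 windows of the genes tested. GGGCGG occurred in 26 windows (57.8%), above the 35.7% of all windows and below the 63.3% of windows of tested genes. The Sdf2l1 window held 4 CCAAT matches and no GGGCGG, whereas the first Sesn1 window held 4 GGGCGG matches and the only TGTTTAC among the members' windows. The TATA box stood in 3 windows (6.67%, against 13.6% of all and 7.34% of tested), the E-box in 3 (6.67%, against 7.15% and 10.5%) and the cyclic AMP element in 1, that of Neurl1a (2.22%, against 1.79% and 3.17%). The ETS-type sequence stood in 5 windows (11.1%, against 11% and 15.2%), those of Gm5150, Fgd2, Cdk5rap3 and both of Tmem176a. The forkhead-type sequence stood in 1 (2.22%, against 3.65% and 2.54%) and the bZIP palindrome in 0 (0.119% of all windows and 0.165% of tested). Both windows of Tmem176a overlap and share an ETS-type match, and those of Cdk5rap3 share CCAAT and GGGCGG matches. The shares of windows thus count some matches again. None of the 8 motifs contains another, and the E-box, the cyclic AMP element and the bZIP palindrome read the same on both strands. Some GGGCGG matches in a window overlap each other. In Prex1 and Adk some share bases with a CCAAT match, and in Scamp5 a GGGCGG match abuts a CCAAT. Median GC content was 61.7% and the median count of CG pairs was 19, against 60.7% and 21 in the windows of tested genes. A match describes these letters and is not evidence of binding.

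**Figure D1:**
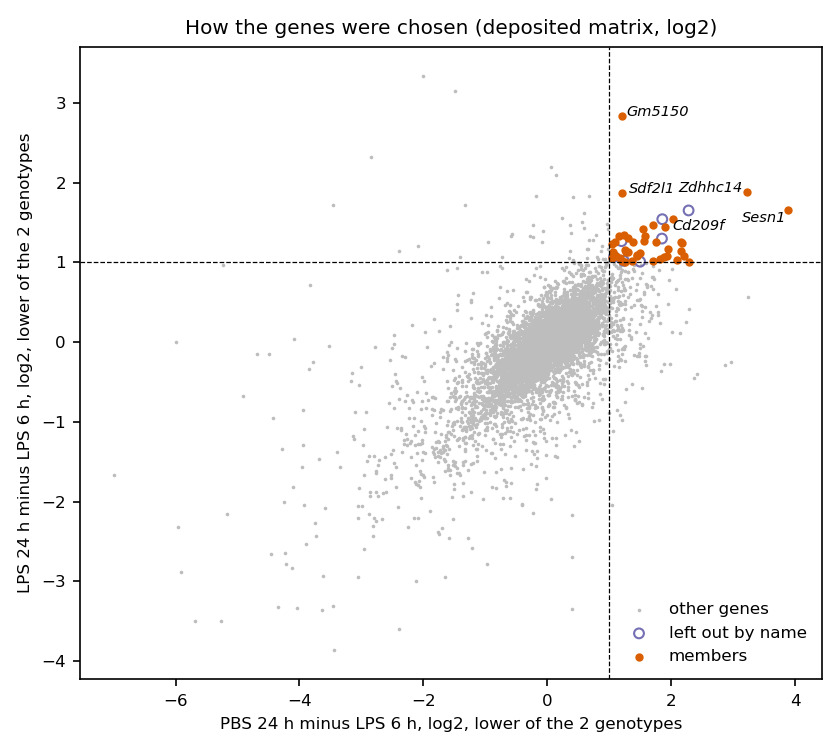
Each point is 1 of 8598 genes. The horizontal axis gives PBS 24 h minus LPS 6 h and the vertical axis LPS 24 h minus LPS 6 h, both as log2 of the deposited normalized intensity and both the lower of the values in the 2 genotypes. The 41 members (orange) and the 7 genes left out by name (open circles) fill the upper right corner, set off by dashed lines at 1.

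Membership rests on thresholds and not on a gap, as the plot of the choice shows. On the scale of the choice, the smallest of a gene's 4 differences was 1.88 for Zdhhc14, 1.66 for Sesn1, 1.54 for Cd209f, 1.47 for Arhgap4, 1.45 for Scamp5 and 1.42 for Erp29. Just inside the threshold lay Plxnb2, Tmem176a, Pla2g15 and Uchl3, each at 1.01. Just outside lay Rpa1 and Gas7 at 0.99 and Selplg and Etv5 at 0.97. From here on values are log2 intensities after background correction and quantile normalization, which widen differences of dim probes, and levels of different genes are not compared because each has its own probe. In pairs of values, Ntg stands first and LRRK2KO second.

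On that scale PBS 24 h exceeded LPS 6 h by 1.15 to 5.54 over the members and genotypes, with a median of 2.11, and LPS 24 h exceeded LPS 6 h by 1.10 to 4.64, with a median of 1.69. Both differences chose the genes and are given with no test. An additive limma fit over all genes called 26.2% of them lower at LPS 6 h than in PBS and 14.1% higher at LPS 24 h than at LPS 6 h (adjusted p under 0.05), and 941 genes (10.9%) both, among them all 41 members, from which nothing is read. The median of all genes was −0.13 for LPS 6 h minus PBS and 0.02 with arrays set to equal medians in place of quantile normalization, and the members' medians were −2.09 and −1.99. The calls at LPS 6 h against PBS were 1354 higher and 2255 lower with quantile normalization and 1706 higher and 1765 lower with median scaling. For LPS 24 h against LPS 6 h they were 1214 higher and 830 lower with quantile normalization, and 996 higher and 1050 lower with median scaling. Of the members, 38 were detected on all 6 arrays. Abi3 was undetected on both LPS 6 h arrays, and Zdhhc14 and 6430548M08Rik on the Ntg LPS 6 h array.

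**Figure D2:**
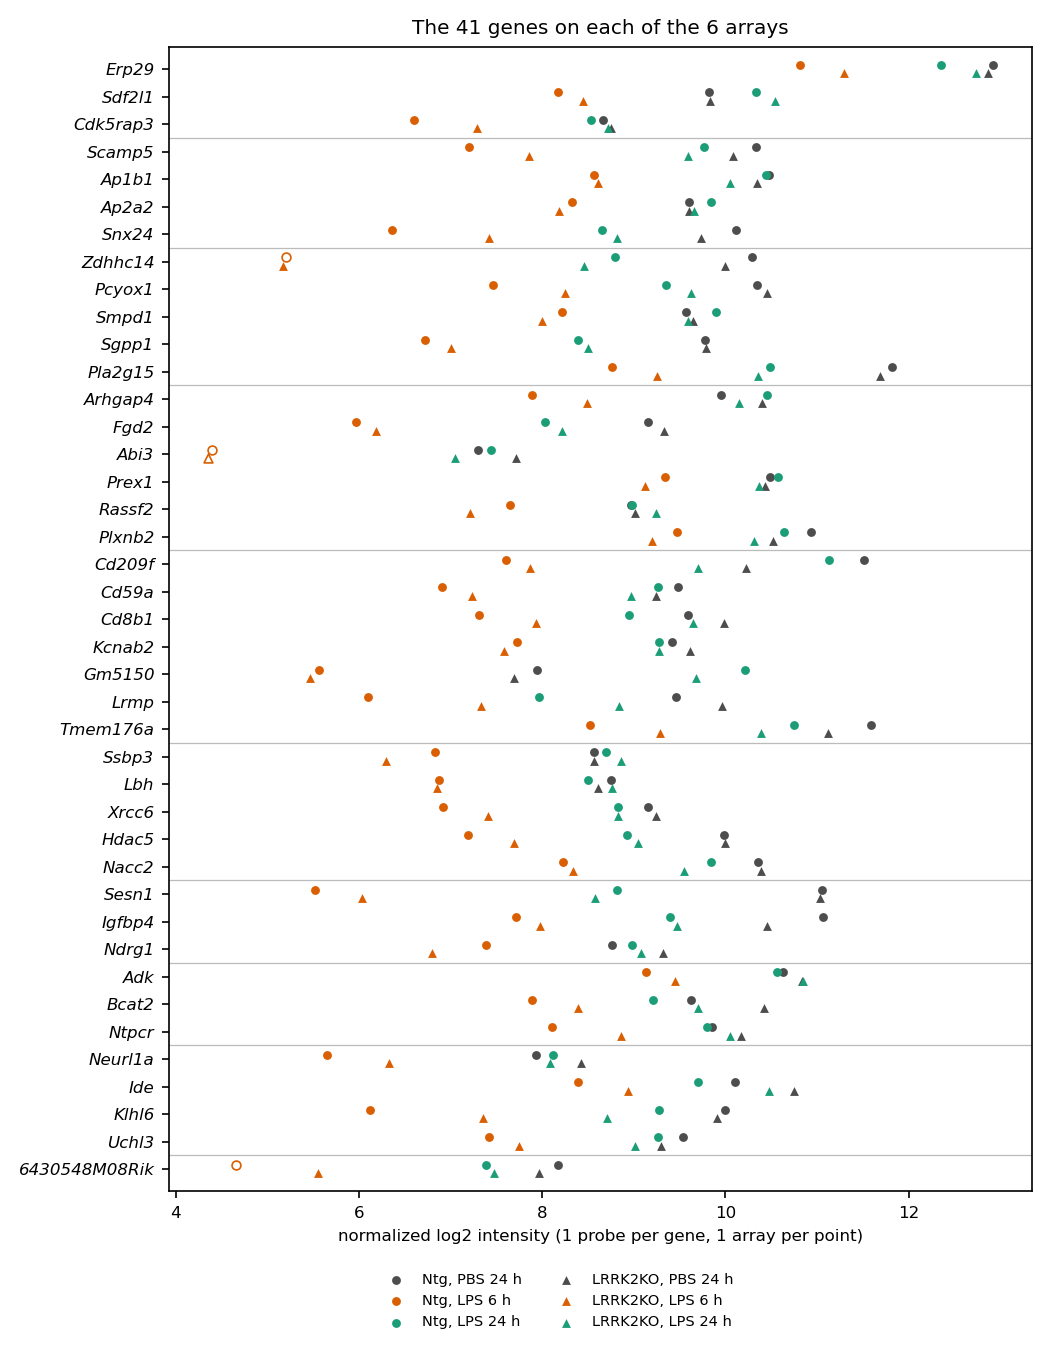
Normalized log2 intensity (horizontal axis) of the 41 members, 1 row each and grouped by role, with 1 point per array. Circles are Ntg, triangles LRRK2KO, grey PBS 24 h, orange LPS 6 h, green LPS 24 h, and open symbols were not detected; in each genotype of every row the LPS 6 h point lies to the left, as the choice of genes requires, and the green point lies farthest beyond the grey one of its genotype in Gm5150 and Sdf2l1. Grey lines separate the roles, and positions of different genes are not comparable.

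Sesn1 encodes a sestrin, a stress protein induced by p53 and FoxO factors that holds back the growth kinase mTORC1. It read 11.05 and 11.03 in PBS, 5.51 and 6.03 at LPS 6 h, and 8.81 and 8.58 at LPS 24 h. The 3 arms did not overlap, with LPS 24 h between the others in both genotypes. PBS exceeded LPS 6 h by 46.4-fold in Ntg and 32.1-fold in LRRK2KO. Igfbp4, which binds insulin-like growth factors outside the cell, read 11.07 and 10.46 in PBS, 7.71 and 7.98 at LPS 6 h and 9.39 and 9.48 at LPS 24 h, again with 3 separate arms. Ndrg1, a stress-responsive gene, read 8.76 and 9.32 in PBS, 7.39 and 6.79 at LPS 6 h and 8.98 and 9.07 at LPS 24 h, so its 24 h arms overlapped.

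The endoplasmic reticulum members are a lumenal folding factor (Erp29), a partner of the Hsp70 system there (Sdf2l1) and a subunit of the UFM1 ligase on its surface (Cdk5rap3). Erp29 read 12.92 and 12.87 in PBS, 10.82 and 11.29 at LPS 6 h and 12.36 and 12.74 at LPS 24 h. Sdf2l1 read 9.83 and 9.84 in PBS, 8.17 and 8.44 at LPS 6 h and 10.33 and 10.54 at LPS 24 h. Erp29 thus ended below its PBS level on both arrays and Sdf2l1 above it on both. Cdk5rap3 returned to 8.54 and 8.72 from 6.60 and 7.28, against 8.67 and 8.75 in PBS.

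Of the vesicle traffic members, Ap1b1 and Ap2a2 encode large subunits of the clathrin adaptors at the trans-Golgi network and at the plasma membrane. Ap1b1 read 10.48 and 10.35 in PBS, 8.56 and 8.61 at LPS 6 h and 10.44 and 10.05 at LPS 24 h. Ap2a2 read 9.60 in both PBS cultures, 8.32 and 8.18 at LPS 6 h and 9.85 and 9.66 at LPS 24 h. Ap1b1 ended at or just below its PBS level and Ap2a2 just above it. Scamp5, a secretory carrier membrane protein, read 10.33 and 10.08 in PBS, 7.20 and 7.86 at LPS 6 h and 9.77 and 9.60 at LPS 24 h. Snx24, a sorting nexin with a lipid-binding domain, read 10.12 and 9.73 in PBS, 6.36 and 7.42 at LPS 6 h and 8.65 and 8.81 at LPS 24 h. These last genes stayed below PBS on both LPS 24 h arrays.

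Zdhhc14, a palmitoyltransferase that attaches fatty acids to proteins, read 10.29 and 9.99 in PBS, 5.20 (not detected) and 5.18 at LPS 6 h, and 8.80 and 8.46 at LPS 24 h. Against the lowest signal of a detected probe, PBS exceeded LPS 6 h at least 31.6-fold in Ntg, and LPS 24 h exceeded it at least 11.2-fold. Sgpp1, a phosphatase of sphingosine 1-phosphate, read 9.78 and 9.79 in PBS, 6.72 and 7.005 at LPS 6 h and 8.39 and 8.51 at LPS 24 h. Pla2g15, the lysosomal phospholipase A2, read 11.82 and 11.69 in PBS, 8.76 and 9.25 at LPS 6 h and 10.49 and 10.36 at LPS 24 h. In these genes the arms did not overlap, and LPS 24 h lay between. Pcyox1, which breaks down prenylated cysteine, read 10.35 and 10.46 in PBS, 7.47 and 8.25 at LPS 6 h and 9.35 and 9.63 at LPS 24 h. Smpd1, acid sphingomyelinase of the lysosome, differed from them in that its 24 h arms overlapped, at 9.57 and 9.65 in PBS and 9.90 and 9.59 after LPS, with 8.21 and 7.998 at LPS 6 h.

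Several members act on the actin skeleton or on signalling to it. Fgd2, an exchange factor for Cdc42, read 9.15 and 9.33 in PBS, 5.97 and 6.19 at LPS 6 h and 8.03 and 8.22 at LPS 24 h. Prex1, an exchange factor for Rac, read 10.49 and 10.43 in PBS, 9.34 and 9.12 at LPS 6 h and 10.57 and 10.37 at LPS 24 h. Fgd2 therefore had 3 separate arms and Prex1 overlapping 24 h arms. Arhgap4, a GTPase-activating protein, read 9.95 and 10.40 in PBS, 7.89 and 8.48 at LPS 6 h and 10.45 and 10.15 at LPS 24 h. Abi3, a subunit linked to the WAVE actin complex, read 7.30 and 7.71 in PBS and 7.44 and 7.05 at LPS 24 h. Because Abi3 was undetected on both LPS 6 h arrays, PBS exceeded LPS 6 h at least 4.955-fold and LPS 24 h exceeded it at least 4.13-fold. The semaphorin receptor Plxnb2 read 10.93 and 10.52 in PBS, 9.47 and 9.20 at LPS 6 h and 10.64 and 10.31 at LPS 24 h, and so stayed just below PBS in each genotype. Rassf2, a Ras-association protein, read 8.97 and 9.01 in PBS, 7.65 and 7.215 at LPS 6 h and 8.98 and 9.24 at LPS 24 h, at or above its PBS level.

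Surface and membrane proteins were the most numerous group, with 7 members. Gm5150 read 7.94 and 7.70 in PBS, 5.57 and 5.47 at LPS 6 h and 10.21 and 9.68 at LPS 24 h, so every LPS 24 h value exceeded every PBS value. Cd59a, an inhibitor of the complement membrane attack complex, read 9.48 and 9.24 in PBS, 6.91 and 7.23 at LPS 6 h and 9.26 and 8.97 at LPS 24 h. Its 24 h arms overlapped. Lrmp, a membrane protein of the endoplasmic reticulum in lymphoid and myeloid cells, read 9.46 and 9.96 in PBS, 6.10 and 7.33 at LPS 6 h and 7.96 and 8.84 at LPS 24 h. Kcnab2, a beta subunit of voltage-gated potassium channels, read 9.42 and 9.61 in PBS, 7.73 and 7.58 at LPS 6 h and 9.27 and 9.28 at LPS 24 h. Lrmp and Kcnab2 each had 3 separate arms, though Kcnab2 at LPS 24 h lay just under its lower PBS value.

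Cd209f, a lectin of the DC-SIGN family, read 11.51 and 10.22 in PBS, 7.60 and 7.86 at LPS 6 h and 11.13 and 9.70 at LPS 24 h. Both 24 h arrays were higher in Ntg, and the LPS 6 h arrays were close. Markers of border macrophages, the macrophages of the brain's coverings, were counted beside it: of 13 with a probe, 5 to 6 were detected per array, and their summed intensity was 10200 to 14130 in Ntg and 7288 to 7961 in LRRK2KO. The largest part of each sum was Ms4a7, which read 12.50 to 12.91 in Ntg and 12.20 to 12.60 in LRRK2KO. Mrc1 read 9.88 to 11.97 in Ntg and 7.83 to 10.34 in LRRK2KO. Cd163, Lyve1 and the Cd209 relatives Cd209a, Cd209b, Cd209d and Cd209g were undetected on every array. The part of such cells in the Cd209f values was not tested. Cd8b1, the beta chain of the T-cell co-receptor CD8, read 9.59 and 9.99 in PBS, 7.31 and 7.93 at LPS 6 h and 8.95 and 9.65 at LPS 24 h. The T-cell genes Cd3e, Cd3d, Cd3g and Cd8a were undetected on all 6 arrays, and 0 of 9 lymphocyte markers with a probe were detected on 4 of the arrays, the exceptions being 2 on LRRK2KO PBS and 1 on LRRK2KO LPS 24 h.

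Among nuclear proteins, Hdac5, a class IIa histone deacetylase, read 9.99 on both PBS arrays, 7.20 and 7.69 at LPS 6 h and 8.93 and 9.05 at LPS 24 h. Nacc2, a transcriptional repressor, read 10.36 and 10.39 in PBS, 8.23 and 8.33 at LPS 6 h and 9.84 and 9.55 at LPS 24 h. Both had 3 separate arms. Ssbp3, a partner of LIM-domain transcription complexes, read 8.57 on both PBS arrays, 6.83 and 6.29 at LPS 6 h and 8.70 and 8.86 at LPS 24 h, and so passed its PBS level on both. The transcription cofactor Lbh and the DNA end-joining factor Xrcc6 complete the group, in which PBS exceeded LPS 6 h by 1.73 to 2.79. The metabolic enzymes were adenosine kinase (Adk), mitochondrial branched-chain aminotransferase (Bcat2) and the nucleoside triphosphatase Ntpcr, with differences of 1.31 to 2.04. Adk returned to 10.56 and 10.85 from 9.14 and 9.45, against 10.63 and 10.84 in PBS.

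The protein turnover group held Ide, the insulin-degrading enzyme, the ubiquitin hydrolase Uchl3, the ligase adaptor Klhl6 and the ubiquitin ligase Neurl1a. Ide read 10.10 and 10.75 in PBS, 8.40 and 8.94 at LPS 6 h and 9.70 and 10.48 at LPS 24 h, higher in LRRK2KO in each arm. Klhl6 read 9.99 and 9.91 in PBS, 6.12 and 7.36 at LPS 6 h and 9.27 and 8.71 at LPS 24 h. In this group PBS exceeded LPS 6 h by 1.54 to 3.87 and LPS 24 h exceeded it by 1.26 to 3.15. 6430548M08Rik, with no role given here, read 8.18 and 7.96 in PBS, 4.65 (not detected) and 5.56 at LPS 6 h, and 7.38 and 7.48 at LPS 24 h. In Ntg, PBS exceeded LPS 6 h at least 7.30-fold.

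The rule used 1 probe per gene, and 26 members had 37 other probes that it did not use. Of these, 24 probes of 19 members were detected on at least 2 arrays, and all 24 were lower at LPS 6 h than in PBS and than at LPS 24 h in both genotypes, on the deposited log2 scale. Their differences were smaller, with a median of 0.41 for the smallest of the 4. Only 2 reached 1 in all 4 differences, a second probe of Sesn1 (1.65) and of Klhl6 (1.09). The arrays and the genes are the same, so these probes share their RNA with the choice. The other 13 probes were detected on fewer than 2 arrays and give no values. Among them is every other probe of Zdhhc14, Cd8b1, Abi3, Arhgap4, Bcat2, Neurl1a and Uchl3, detected on no array. The values of these members therefore rest on 1 probe each, with no second probe that shows the same course.

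How far the genes had returned was read from LPS 24 h against PBS 24 h, on which the rule set no threshold of its own. It is, however, the difference of the 2 differences that the rule did threshold. The members' values here, and their calls and p-values below, are therefore not independent of the choice and describe the members only. Within 2-fold of PBS in both genotypes were 30 of 41 members (86.6% of all genes). At least 2-fold below PBS in both were 6, Zdhhc14, Sesn1, Fgd2, Lrmp, Sgpp1 and Pla2g15 (4.01% of all genes), and at least 2-fold above was 1, Gm5150 (2.78%). Past 2-fold in 1 genotype were 4, Igfbp4, Hdac5 and Snx24 in Ntg and Klhl6 in LRRK2KO, each below PBS. The share of all genes past 2-fold in 1 genotype was not counted. Igfbp4 was at −1.67 and −0.985, Hdac5 at −1.06 and −0.95, Snx24 at −1.46 and −0.92 and Klhl6 at −0.72 and −1.20. For Igfbp4, Hdac5 and Snx24 the LRRK2KO value thus lay just short of 2-fold. The members' median difference was −0.33 against −0.01 over all genes.

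In the limma fit, 10 members were below PBS and 2 above it at an adjusted p under 0.05, where 8.93% of all genes were called lower and 6.49% higher (15.4% in either direction). At an unadjusted p under 0.05 there were 16 members, against 30.6% of all genes. The largest difference below PBS was that of Sesn1, −2.35 ± 0.21 (log2, standard error, adjusted p = 0.0025), followed by Zdhhc14 at −1.51 ± 0.16 (adjusted p = 0.00361) and Sgpp1 at −1.34 ± 0.15 (adjusted p = 0.00476). Pla2g15 and Igfbp4 were each at −1.33, with adjusted p = 0.0114 and 0.0175. Lrmp was at −1.31 (adjusted p = 0.0121) and Fgd2 at −1.12 (adjusted p = 0.00629). The smallest called differences below PBS were Hdac5 at −1.004 (adjusted p = 0.0168), Pcyox1 at −0.91 (adjusted p = 0.0345) and Nacc2 at −0.67 (adjusted p = 0.0455). Gm5150 was above PBS by 2.12 ± 0.17 (adjusted p = 0.00166) and Sdf2l1 by 0.61 ± 0.15 (adjusted p = 0.0487), each in both genotypes.

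The palmitoyltransferase gene Zdhhc14 and, of the lipid and lysosomal enzymes, Sgpp1, Pla2g15 and Pcyox1 thus ended below PBS. Smpd1 (0.13 ± 0.16, adjusted p = 0.631) did not pass the test. These genes were grouped after the members had been seen. Pcyox1 and Nacc2 lost their call with median scaling and without the detection filter, Nacc2 also on the mean of its probes, and Sdf2l1 without the filter. Gm5150, Sesn1 and Zdhhc14 kept their call when each of the 6 arrays was left out in turn. Sgpp1 lost it when either LPS 24 h array was left out, and Fgd2, Igfbp4, Lrmp and Pla2g15 also when PBS from Ntg was. Hdac5, Nacc2, Pcyox1 and Sdf2l1 lost it when any 1 of the 4 arrays at 24 h was left out. Leaving out one or the other LPS 6 h array gave the same fit of this difference, because the remaining LPS 6 h array adds nothing to it. The 10 members called lower became 2 when either LPS 24 h array was left out, 3 without PBS from Ntg, 7 without PBS from LRRK2KO and 14 without either LPS 6 h array, and the 2 called higher became 1 when any 1 of the 4 arrays at 24 h was left out. Over all genes, the 768 called lower likewise became 174 and 221 without an LPS 24 h array (Ntg first), 252 and 328 without a PBS array and 948 without either LPS 6 h array.

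**Figure D3:**
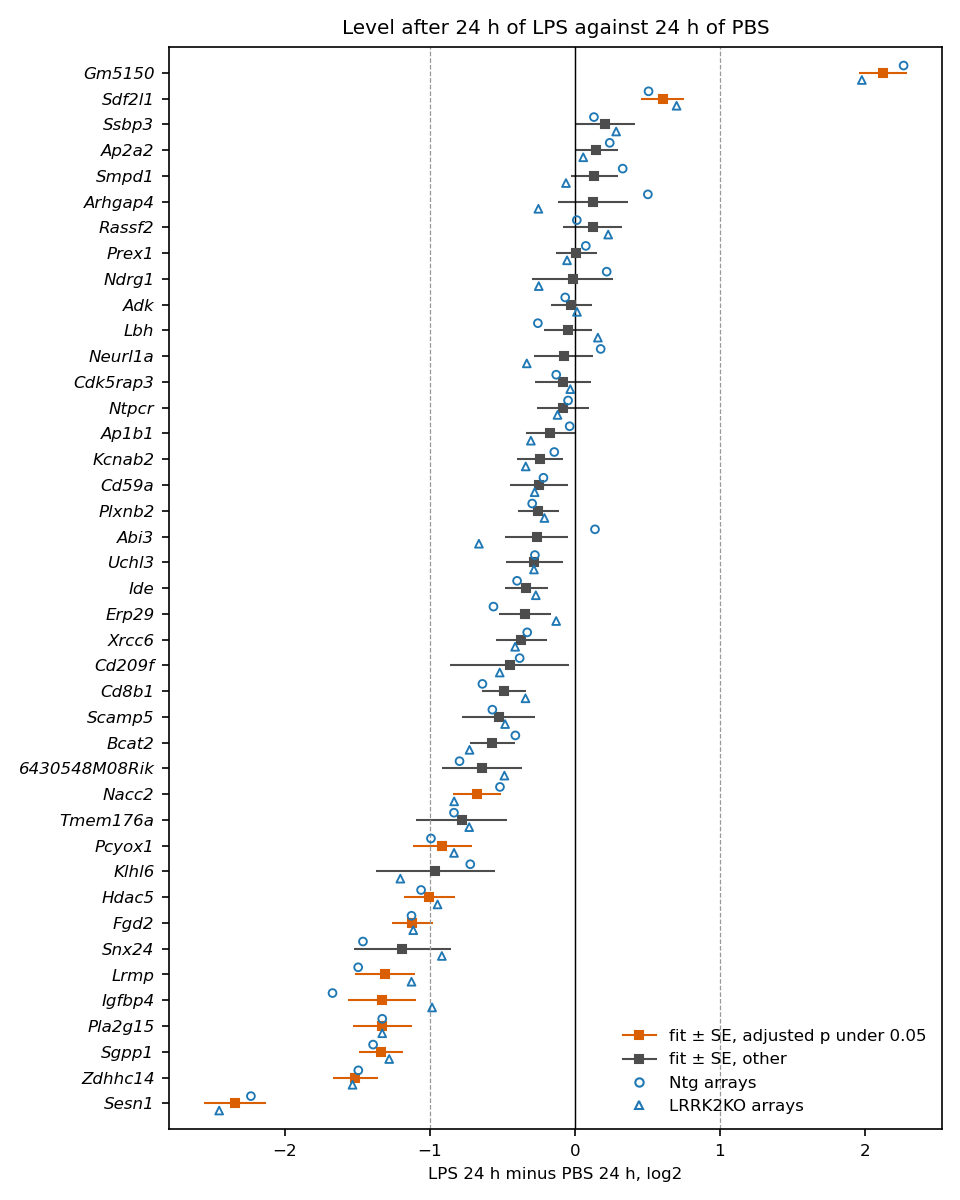
LPS 24 h minus PBS 24 h (log2, horizontal axis) for the 41 members. Squares with bars are the limma estimate ± standard error, orange where the adjusted p was under 0.05, and open circles and triangles are the Ntg and LRRK2KO arrays; dashed lines mark 2-fold. Sesn1 lies lowest at −2.35 and Gm5150 highest at 2.12.

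Between the genotypes, the fit called 0 of 41 members at an adjusted p under 0.05, where 0.454% of all genes were called, 0.163% as higher and 0.291% as lower in LRRK2KO. At an unadjusted p under 0.05 it held 6 members, against 16% of all genes. The smallest adjusted p belonged to Ide, higher in LRRK2KO by 0.66 ± 0.12 (adjusted p = 0.0989), Lrmp by 0.87 ± 0.17 (adjusted p = 0.102), Bcat2 by 0.60 ± 0.13 (adjusted p = 0.124) and Cd8b1 by 0.57 ± 0.13 (adjusted p = 0.127). All 4 were higher in LRRK2KO in 3 of 3 arms. On the deposited values without background correction, Ide (adjusted p = 0.0482) and Lrmp (adjusted p = 0.0465) passed. Over the members, 13 were higher in LRRK2KO in 3 of 3 arms (19% of all genes) and 5 lower (20.2%).

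Single arrays allow no test within an arm. At LPS 6 h, LRRK2KO exceeded Ntg by at least 2-fold in 3 members, Lrmp by 1.24, Klhl6 by 1.24 and Snx24 by 1.06 on the log2 scale, where 1.72% of all genes did, and none was lower by as much (1.78%). At the 24 h times 1 member was at least 2-fold lower in LRRK2KO, Cd209f, by −1.29 in PBS (1.74% of all genes) and by −1.43 at LPS 24 h (2.22%). Its fitted difference was −0.82 ± 0.34 (adjusted p = 0.316), and leaving out either LPS 6 h array gave −1.36 (adjusted p = 0.032). The border macrophage markers Mrc1, Pf4, Ms4a7, F13a1 and Ccl8, detected on all 6 arrays, were lower in LRRK2KO in every arm. That included LPS 6 h, where Mrc1 read 10.69 and 9.19 but Cd209f 7.60 and 7.86. In both genotypes Mrc1 was lowest and Pf4 highest at LPS 24 h, whereas Cd209f was lowest at LPS 6 h. A link between these markers and Cd209f was not tested.

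The LPS 6 h level was higher in LRRK2KO in 29 of 41 members, with a median of 0.32, where 53.6% of all genes were higher and their median was 0.03. In PBS and at LPS 24 h, 22 of 41 were higher in LRRK2KO, where 48.1% and 46.5% of all genes were. The gap between PBS and LPS 6 h was thus smaller in LRRK2KO in 31 of 41 members (75.6%), by a median of 0.27. It was smaller in 146 of 211 other genes (69.2%) that were at least 1 lower at LPS 6 h in both genotypes, by a median of 0.18, and in 53.9% of all genes. With median scaling the count was again 31 of 41, beside 48.3% of all genes. Among the 38 members detected on all 6 arrays, the gap differed most for Cd209f (1.55), Snx24 (1.45), Klhl6 (1.32) and Tmem176a (1.23), each smaller in LRRK2KO, while that of Ndrg1 was larger in LRRK2KO by 1.16. The rule set a threshold on the gap between PBS and LPS 6 h in each genotype, and genes on the same arrays are not replicates of a genotype. These counts rest on 4 arrays, 1 per group, and the LRRK2KO LPS 6 h array had 14074 detected probes against 13126 on the Ntg array.

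**Figure D4:**
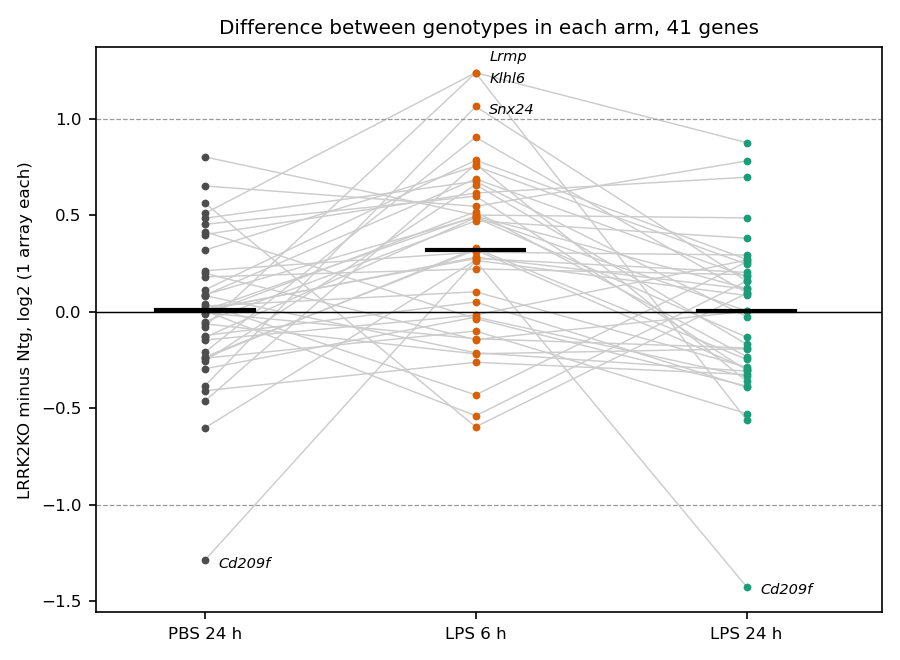
LRRK2KO minus Ntg (log2, vertical axis) in each arm for the 41 members, 1 point per gene from 1 array of each genotype. Grey lines join the values of a gene, black bars are medians and dashed lines mark 2-fold; the median is 0.32 at LPS 6 h, and Cd209f lies below −1 in both 24 h arms.

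To see whether genes of the same pathways behaved alike, lists of related genes were counted without the members. The list for the endoplasmic reticulum was drawn up after the members had been seen. Of its 21 other genes of folding and stress, 10 fell at LPS 6 h against PBS (26.2% of all genes) and 0 rose (15.7%). From LPS 6 h to LPS 24 h 13 rose (14.1%). All 10 that fell also passed the test for the rise (10.9% of all genes passed both), but the 2 tests share the LPS 6 h arrays and are not independent. Pdia4, a disulfide isomerase, fell by 1.23 ± 0.22 (adjusted p = 0.00835) and rose by 2.27 ± 0.22 (adjusted p = 0.00455). Calr, the calcium-binding chaperone calreticulin, fell by 1.10 ± 0.15 (adjusted p = 0.00335) and rose by 1.63 ± 0.15 (adjusted p = 0.00406). Hspa5, the main Hsp70 of the compartment, passed neither test, with a dim probe that read 4.58 to 5.52. At LPS 24 h, 4 of the 21 were called above PBS (6.49% of all genes). They were Pdia6 by 1.17, Creld2 by 1.12, Pdia4 by 1.04 and Sel1l by 0.68, and the member Sdf2l1 was above PBS too. That count of 4 was 9 with median scaling and 0 without the LRRK2KO PBS array or either LPS 24 h array.

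The medians of these 21 genes were −0.56 for LPS 6 h minus PBS and 0.93 for LPS 24 h minus LPS 6 h, against −0.13 and 0.10 over all genes tested. With median scaling 5 of 21 were called both ways in place of 10, with medians of −0.22 and 0.73. When arrays were left out in turn, the count was 1 or 2 for an LPS 24 h array (Ntg first), 3 or 7 for a PBS array and 4 or 8 for an LPS 6 h array. Over all genes, 49 were called higher at LPS 24 h than at LPS 6 h when LPS 24 h from Ntg was left out and 144 when that from LRRK2KO was, in place of 1214.

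**Figure D5:**
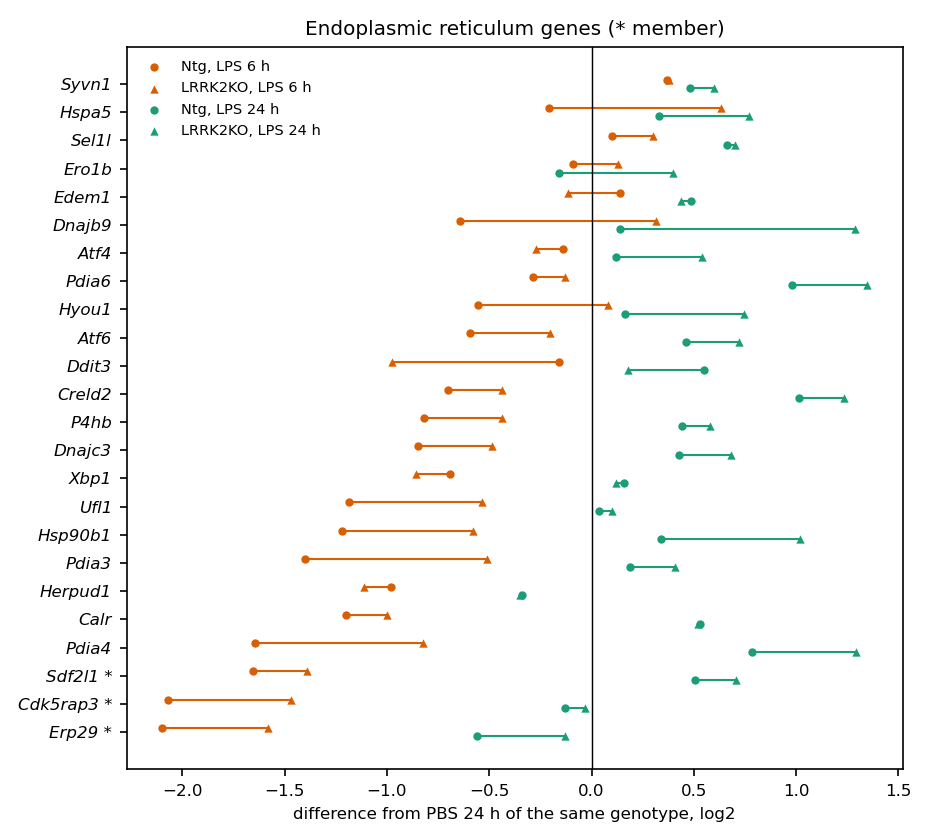
Difference from PBS 24 h of the same genotype (log2, horizontal axis) for 24 genes of folding and stress in the endoplasmic reticulum, members marked with an asterisk. Orange is LPS 6 h and green LPS 24 h, circles are Ntg and triangles LRRK2KO, and a line joins the genotypes; Erp29, Cdk5rap3 and Sdf2l1 lie farthest to the left at LPS 6 h, and Pdia6, Creld2 and Pdia4 farthest to the right at LPS 24 h on average.

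Of 14 p53 targets other than Sesn1, 9 fell at LPS 6 h (26.2% of all genes) and 2 rose (15.7%), and 6 fell and then rose by LPS 24 h (10.9%). Zmat3, which encodes an RNA-binding protein, fell by 2.24 ± 0.17 (adjusted p = 0.00064) and rose by 1.43 ± 0.17 (adjusted p = 0.00688). Phlda3 fell by 2.003 ± 0.31 and rose by 1.79 ± 0.31, and Ccng1, a cyclin G, fell by 1.28 ± 0.15 and rose by 1.02 ± 0.15. The death receptor gene Fas rose by 1.37 ± 0.16 at LPS 6 h (adjusted p = 0.00233). Of 15 targets of FoxO factors and related genes, 5 fell and 4 rose at LPS 6 h, and 3 fell and rose again, including Tsc22d3 (−2.25 and then 1.18) and Sesn2 (−0.98 and then 1.19). The count of 6 p53 targets became 0 when LPS 24 h from Ntg was left out, and 1 when that from LRRK2KO was.

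Close relatives of other members were counted in the same way, and the lists for lipid enzymes, clathrin sorting and the WAVE complex were also drawn up after the members had been seen. Over all genes, 26.2% fell at LPS 6 h, 15.7% rose and 10.9% fell and rose again. Of 17 other palmitoyltransferases, 4 fell and 4 rose at LPS 6 h, and 1, Zdhhc9, fell (−1.03) and rose again (1.01). Of 16 other enzymes of sphingolipids and lysosomal lipids, 4 fell, 4 rose and 0 fell and rose again. The sphingosine kinase gene Sphk1 rose by 2.44 and the ceramide synthase gene Cers6 by 2.32, whereas Lipa, the lysosomal acid lipase, fell by 1.48 at LPS 6 h and stood at −2.38 against PBS at LPS 24 h. Of 23 other clathrin adaptor and sorting genes, 5 fell, 1 rose and 1, Ap2m1, fell and rose again. Of 18 other genes of the WAVE complex and Rac activation, 4 fell, 0 rose and 1, Vav2, fell and rose again. On the deposited matrix 5 of the clathrin list, 4 palmitoyltransferases and 2 of the WAVE list fell and rose again. With median scaling these counts were 0, 1 and 1.

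Larger families were counted as well. Of 114 other Tmem genes, 48 fell, 11 rose and 21 fell and rose again. Of 32 other genes of DNA repair the counts were 14, 1 and 4, of 50 other chromatin regulators 19, 6 and 9, and of 163 other genes of ubiquitin ligase and deubiquitinase families 33, 35 and 12. Of 22 Tbc1d genes, GTPase-activating proteins for Rab, and of 27 genes of phosphoinositide and lipid phosphatases, 6 each fell and rose again. Leaving out the Ntg LPS 24 h array reduced each list's count of genes that fell and rose again to at most 1, and leaving out the LRRK2KO one to at most 2. Beside them, 26.2% of all genes fell, 15.7% rose and 10.9% fell and rose again. Of 171 zinc finger genes, none of which was a member, 30 fell, 21 rose and 16 fell and rose again. By contrast, 26 of 27 interferon-stimulated genes and 18 of 24 genes of the NF-kB pathway rose at LPS 6 h, and none of either list fell and rose again. Of 12 homeostatic microglia markers, 6 fell at LPS 6 h and 1 rose again, and 7 were below PBS at LPS 24 h (8.93% of all genes).

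Markers of other brain cells moved with the arms too. Mbp, a myelin gene, read 8.52 and 8.55 in PBS, 5.15 and 6.12 at LPS 6 h and 7.38 and 7.40 at LPS 24 h, lowest at LPS 6 h like the members. Of 4 oligodendrocyte lineage markers with a probe, 0 to 2 were detected per array, Olig2 and Pdgfra on none, and the summed intensity was 440 to 462 in PBS, 120 to 132 at LPS 6 h and 233 to 265 at LPS 24 h. Of 5 astrocyte markers, 1 to 4 were detected per array, and their summed intensity was 228 to 250 in PBS, 716 to 1075 at LPS 6 h and 1712 to 2301 at LPS 24 h. Nearly all of that difference was Gja1, a gap junction gene, which read 6.81 and 6.83 in PBS, 9.88 and 9.11 at LPS 6 h and 11.08 and 10.66 at LPS 24 h. Gfap, Aqp4, Aldh1l1 and Slc1a2 read below 6 on every array. Ttr, a choroid plexus transcript, was lower in LRRK2KO in every arm, at 12.71 and 9.38 in PBS. The part of these cells in the members' values was not tested.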

How the data were processed

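RNA from microglia of 6 groups, 1 array each, was hybridised to Illumina beadchips, and samples were grouped by their titles. Per the file headers, the deposited table of unnormalized values holds a linear intensity and a detection p-value for each of 45281 probes on each array. The deposited series matrix holds linear intensity values whose medians are 101.16 to 101.18 on all 6 arrays. That it is normalized between arrays is read from those values. The submitters' processing notes list BeadStudio and give no version. Gene names came from GEO's annotation of the platform, which gave 1 symbol to 34885 probes, several to 18 and none to 10378. An update of symbols through a RefSeq table changed 0.

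The members were found on log2 of the series matrix. Their values and tests come from background correction with the detection p-values (normexp, offset 16), quantile normalization and log2 in limma 3.58.1 (R 4.3.3), with the probe the rule had chosen. Genotype and arm entered 1 additive limma model (lmFit, eBayes) over the 6 arrays, which had 2 residual and 3.87 prior degrees of freedom and was checked on simulated data. P-values are two-sided, Benjamini-Hochberg adjusted over the 8598 genes, and called under 0.05. Errors are standard errors. The number of arrays limits the precision. A gene undetected on all arrays of 1 side has only a bound, computed against the array's lowest detected signal, or its own where higher. Differences between single arrays have no test.

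The members, gene lists, tests and alternatives were chosen with earlier results of these data known, and role groups and the lists for endoplasmic reticulum, clathrin sorting, sphingolipids, WAVE and Rac, lymphocytes and border macrophages after the members had been seen. Named were the 24 members with the largest smallest difference, the 8 with the largest rise and fall at LPS 24 h against PBS, the 6 with the largest steady rise and fall in LRRK2KO, members of the lists, up to 4 others per list by size of change, the 4 genes on each side of the threshold, and Lrrk2, Ccnd1, Tnf and Cx3cr1 as checks. Other genes, such as Nacc2, Cdk5rap3, Ndrg1, Ap2m1, Vav2, Sesn2, Sel1l, Pdia6 and Hspa5, were named after their values were seen. Alternatives were the deposited matrix without background correction, median scaling over probes detected on all 6 arrays, other filters and probe rules, and leaving out each array. Promoter windows came from a RefSeq table of GRCm38.p6 that gave 7070 of the genes tested a window.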

Additional observations from a re-analysis of the deposited data

Results flagged for a closer look

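In 8 of the 41 members the level at LPS 24 h lay on opposite sides of PBS in the 2 genotypes, which were 1 array each in either arm, where 25.7% of all genes did. The difference between the genotypes was not tested. LPS 24 h minus PBS 24 h (log2) was 0.50 in Ntg and −0.25 in LRRK2KO for Arhgap4, 0.14 and −0.66 for Abi3, 0.18 and −0.33 for Neurl1a, and 0.22 and −0.25 for Ndrg1. It was 0.33 and −0.0613 for Smpd1 and 0.0754 and −0.0539 for Prex1. The order was the other way round for Lbh, at −0.26 and 0.16, and Adk, at −0.0666 and 0.0147. The widest of these gaps was 0.80, that of Abi3.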

How the results depend on the processing

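How many genes met the rule depended on the scale and the threshold. It gave 138 genes on background-corrected values, among them all 41, and 26 on the mean of a gene's probes, 25 of them shared. A threshold of 0.8 gave 88 genes and of 1.5 gave 3. Detection on all 6 arrays, no filter and median scaling gave 38, 41 and 33. Members called below PBS at LPS 24 h numbered 2 to 14 when arrays were left out in turn, 13 on the deposited matrix and 8 or 9 under the other settings. Members called above numbered 1 to 2 when arrays were left out and 1 with no filter. Between genotypes, 2 members were called higher in LRRK2KO on the deposited matrix (Ide and Lrmp), and 0 to 1 lower when arrays were left out (Cd209f). With promoters of the tested genes as background, the shares with GGGCGG, the TATA box and the cyclic AMP element were 63.29%, 7.34% and 3.17%. Of the single-member estimates under these settings, 401 for LPS 24 h against PBS stayed on their side of the threshold, 36 lost the call and 11 gained it. For the genotypes, 444 stayed and 4 gained it, and in neither comparison did a called estimate change sign. Over all genes the genotype calls, 39 in the main setting, were 46 higher and 54 lower on the deposited matrix, 33 and 40 with median scaling, 25 and 42 on the mean of probes, and 0 with no filter (2141 at an unadjusted p under 0.05). They were 0 without either PBS array (1241 unadjusted), 1 without either LPS 24 h array, and 37 higher and 84 lower without either LPS 6 h array. No paired analysis was possible because the groups share only replicate number 1. A chip block was not run, since the headers name no chip. Fewer arrays leave fewer residual degrees of freedom, and the cause was otherwise not tested.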
